A study of Arabidopsis thaliana with 7 samples.

Results

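The response of Arabidopsis leaves to salicylic acid (SA) 12 h after spraying was described from a single pair of arrays. Leaves sprayed with 0.5 mM SA in 0.02% Silwet, a surfactant that spreads the spray over the leaf, were set against leaves sprayed with 0.02% Silwet alone, both taken 12 h after the spray. The value of each gene was the difference between the pair, SA minus Silwet, on the log2 scale, so that 1 unit is a 2-fold difference. All probe sets of the Affymetrix ATH1 array that name 1 gene were included, 13513 of 22810 (a probe set is a group of short probes that reads 1 transcript), and they name 13333 loci; the 64 controls of the array maker were left out. Both samples came from Col-0 plants, the standard laboratory accession, aged 3.5 weeks and grown in a 12 h photoperiod, and each was total RNA from a pool of 0.2 g of mature, fully expanded leaves (2 to 4 plants). The series also held SA arrays at 3, 6 and 24 h, a Silwet array at 6 h and an array of untreated leaves taken just before spraying, 7 arrays in all. Replicates were collected but not processed, per the labels, so every condition had 1 array, no difference below has a replicate check, and no p-value, SD or interval can be given.

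SA is a phenolic hormone that leaves make when attacked by biotrophic pathogens. It is sensed through NPR proteins, which act with TGA transcription factors at defence genes, and it is inactivated by glucosylation, methylation and conjugation to amino acids. SA signalling is known for its antagonism with the jasmonate and ethylene pathway, which serves defence against necrotrophs and insects, and for inducing genes of the secretory pathway, which delivers defence proteins.

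The 18 spiked hybridisation controls differed by -0.15 to 0.28 between the SA and the Silwet array, and the array medians of the named probe sets ran from 6.57 to 6.61 over the series. Signal from 25S ribosomal RNA, read by a maker control, was 12.44 on the SA array and 13.43 on the Silwet array, and 8.20 to 10.30 on the other 5 arrays. The 3′ probe set of GAPDH exceeded the 5′ probe set, a measure of RNA integrity, by 1.49 on the SA array and 1.41 on the Silwet array, and the same excess for actin was 2.44 and 1.84. The GAPDH controls themselves stood apart within the pair: the 3′ probe set had 11.68 on the SA array and 10.67 on the Silwet array, the 5′ probe set 10.19 and 9.26, and the Silwet array at 12 h lay below all other arrays for both (11.30 to 11.96 and 9.85 to 11.34 on the other 5). Whether the ribosomal RNA signal or the low GAPDH values of the Silwet array have a part in any difference below was not tested. All 7 mesophyll markers, genes of the photosynthetic apparatus, lay above the array median on every array, and neither of the 2 root markers did. Log2 values of the 7 mesophyll markers summed to 86.8 on the SA array and 90.5 on the Silwet array. In bulk leaf RNA, fewer cells of a type and less RNA per cell cannot be told apart.

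The differences were about as many upward as downward, and the upward ones reached further. Over the 13513 probe sets the median difference was -0.03, the quartiles were -0.27 and 0.18, and the extremes were -5.32 and 7.39. At least 2-fold differences were found for 808 probe sets with a higher level on the SA array (5.98%) and 812 with a lower one (6.01%). At 4-fold the counts were 211 higher and 107 lower, at 8-fold 69 and 21, and at 16-fold 24 and 10. The 808 had a median level of 8.88 on the SA array and 6.97 on the Silwet array, while the 812 had 7.41 on the SA array and 8.96 on the Silwet array. Among the 7228 probe sets whose brighter array of the pair lay above the array median, 741 were higher and 768 lower, against 67 and 44 of the other 6285; a large difference itself raises the brighter array, so this split says nothing of how level and difference relate.

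**Figure D1:**
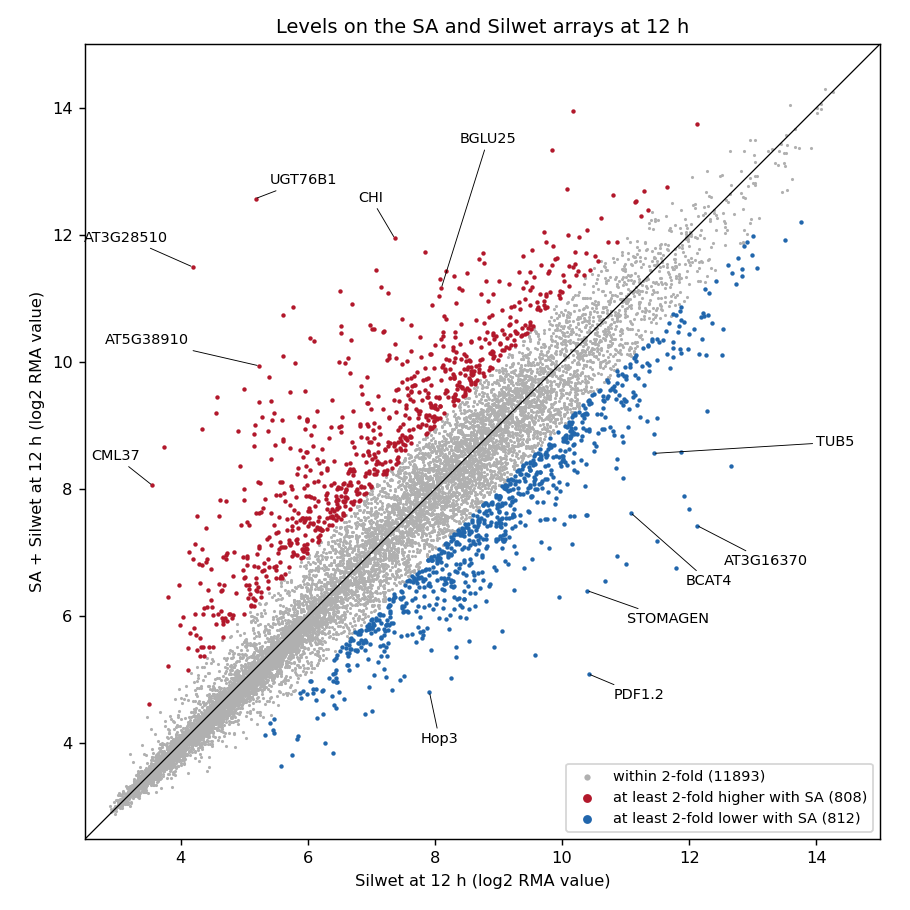
Each point is 1 of 13513 probe sets, with its log2 RMA value on the Silwet array at 12 h (horizontal axis) and on the SA + Silwet array at 12 h (vertical axis); the line marks equal levels. Red points, 808 in all, lie at least 2-fold above the line and reach 7.39 (UGT76B1), while blue points, 812 in all, lie at least 2-fold below it and reach -5.32 (PDF1.2).

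Genes that handle SA or respond to it were the first group described. The list held 8 measured genes, of which 4 were at least 2-fold higher on the SA array and none lower, with a median difference of 1.23 beside -0.03 over all probe sets, and of 0.29 against the untreated array in place of Silwet; it was drawn up with earlier results of these data known. PR1, PR2, PR5, NIMIN1, WRKY70 and ICS1, the usual markers and the synthesis gene, are not analysed here.

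UGT76B1, which glucosylates SA and isoleucic acid, had 13.10, 13.34, 12.57 and 11.33 on the SA arrays at 3, 6, 12 and 24 h, against 4.80 and 5.18 on the Silwet arrays at 6 and 12 h and 5.68 on the untreated array. Its difference at 12 h was 7.39, a 168-fold higher level with SA and the largest of all 13513, and every SA array lay above every array without SA. GRX480, a glutaredoxin that binds TGA factors, had 12.14, 11.60, 10.07 and 9.55 on the SA arrays at 3, 6, 12 and 24 h, against 5.82 and 6.63 on the Silwet arrays at 6 and 12 h and 7.03 on the untreated array. Its level was 10.8-fold higher on the SA array at 12 h, a smaller difference than the 5.78 log2 units of the 6 h pair. WRKY53, a regulator of senescence and defence, differed from both in that the untreated array was among its highest, at 11.85. It had 10.05 on the SA array and 8.17 on the Silwet array at 12 h, a difference of 1.88, beside 5.99 at 6 h. SAG101, a partner of EDS1 in immunity of the TIR-receptor type, had 9.22 on the SA array and 7.76 on the Silwet array, a difference of 1.47. WES1 (GH3.5), which conjugates aspartate to SA and to auxin, stayed just short of 2-fold at 0.98. The glucosyltransferase genes UGT74F1 (0.13) and UGT76D1 (0.18), which act on SA and on dihydroxybenzoic acids, and the SA methyltransferase gene BSMT1 (-0.06) stood close to 0. UGT76B1 was thus the only gene for a conjugating or methylating enzyme on the list that passed 2-fold at 12 h.

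The wider UDP-glycosyltransferase family, which attaches sugars to hormones, phenolics and toxins, held 50 measured genes, 9 higher and 4 lower at 2-fold, around a median of 0.00. UGT73D1 had 9.58 on the SA array and 4.99 on the Silwet array, a difference of 4.59, and its neighbour on the chromosome, UGT73C7, differed by 1.75. The adjacent genes UGT73B5 and UGT73B4 differed by 3.00 and 2.96. UGT73B5 had 10.40, 9.61, 8.0 and 5.85 on the SA arrays at 3, 6, 12 and 24 h, against 4.93 and 5.00 on the Silwet arrays at 6 and 12 h and 5.41 on the untreated array, so that its level at 24 h was back near that of the arrays without SA. The other higher members were UGT87A2 (1.92), UGT76E12 (1.76), UGT71B6 (1.29), which glucosylates abscisic acid, and GT72B1 (1.29), which acts on monolignols and chlorinated phenols. The lower members were UGT73B1 (-2.19), UGT85A4 (-2.06), the flavonol rhamnosyltransferase gene UGT78D1 (-1.27) and UGT85A5 (-1.13). The family held differences in both directions, and most members stayed within 2-fold.

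Among other detoxifying enzymes the largest upward difference was smaller, in smaller families. Over all named probe sets 5.98% were higher and 6.01% lower, so their small counts are not read as family traits. Of 14 glutathione S-transferases, which couple glutathione to reactive compounds, GSTU22 alone was higher (1.35), and GSTU20 and GSTU18 were lower. GSTU20 had 8.33 on the SA array and 10.85 on the Silwet array, a difference of -2.51, and GSTU18 differed by -1.77. Of 24 cytochromes P450, the oxygenases of secondary metabolism, 2 were higher and 4 lower. In the CYP71B cluster, neighbours went opposite ways: CYP71B23 had 9.48 on the SA array and 7.58 on the Silwet array and was 1.90 higher, while the adjacent CYP71B22 had 6.32 on the SA array and 7.83 on the Silwet array and differed by -1.51. A little further along, CYP71B34 (-1.63) and CYP71B35 (-1.12) were lower and the adjacent CYP71B36 (1.32) was higher. These P450 genes are close relatives, and cross-hybridisation between them was not tested.

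Calcium sensors and signalling proteins included some of the larger differences. Of 7 calmodulin-like proteins, which bind calcium and pass the signal on, 4 were higher and none lower, around a median of 1.54. CML37 had 10.13, 8.56, 8.06 and 6.29 on the SA arrays at 3, 6, 12 and 24 h, against 3.77 and 3.55 on the Silwet arrays at 6 and 12 h and 5.99 on the untreated array, and was 22.7-fold higher on the SA array at 12 h. CML41, which acts in the closure of plasmodesmata, had 10.03 on the SA array and 7.25 on the Silwet array, a difference of 2.78 at 12 h beside 1.37 at 6 h. CML38 (2.51) and CML43 (1.54) were also higher, and CML30, CML42 and CML23 lay between -0.44 and -0.21. For CML38 the untreated array, at 8.59, lay above the SA array at 12 h, at 7.84. Against the untreated array in place of Silwet the family's median difference was -0.34, the opposite direction.

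Of 8 glutamate receptor-like channels, ATGLR1.2 (2.39) and GLR2.7 (1.65) were higher and none was lower. GLR2.7 had 8.60 on the SA array and 6.95 on the Silwet array, and its tandem relatives GLR2.8 and GLR2.9 differed by 0.75 and 0.34. These channels are known for calcium entry in pattern-triggered immunity (GLR2.7 to GLR2.9) and wound signalling (GLR3.3 and GLR3.6), and the wound-signalling members differed by -0.08 and -0.58. Of 9 U-box ubiquitin ligases, 2 were higher and 1 lower, around a median of 0.38 that became -0.19 against the untreated array. PUB24 had 9.60 on the SA array and 7.57 on the Silwet array, a difference of 2.03, and PUB23 differed by 1.2. Both act with PUB22 (0.38) as brakes on pattern-triggered immunity. PUB25 was lower, with 5.24 on the SA array and 6.64 on the Silwet array and a difference of -1.40, and on the untreated array it stood at 8.96.

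Of 7 WRKY factors, the family of defence and senescence regulators, WRKY6 and WRKY53 were higher and none was lower. WRKY6 had 8.90 on the SA array and 6.52 on the Silwet array, a difference of 2.38, but stood only 0.26 above untreated leaves. WRKY22, a factor of pattern-triggered signalling, differed by -0.61, and by 0.080 with the mean of both Silwet arrays as control. Among 5 glutaredoxins, small thiol oxidoreductases, GRXC2 (1.1) was higher besides GRX480, GRXC1 differed by 0.56, and the flower development genes ROXY1 (0.03) and ROXY2 (-0.24) lay near 0. Among 10 subtilases, secreted proteases, SBT3.3 and SBT3.5 were higher by 3.49 and 3.48. SBT3.3, linked to immune priming, had 10.50, 10.12, 9.09 and 8.42 on the SA arrays at 3, 6, 12 and 24 h, against 5.12 and 5.60 on the Silwet arrays at 6 and 12 h and 5.71 on the untreated array. The gene between them on the chromosome, AT1G32950, differed by 1.77, so the 3 neighbours lay on the same side. ARA12 (-1.17), a subtilase of seed mucilage release, and SBT1.3 (-1.19) were lower.

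The 20 largest higher differences among the brighter probe sets ran from 4.18 to 7.39, and 16 of the 20 loci carried no gene symbol. On the Silwet array 17 of the 20 lay below the array median, and their SA levels ran from 8.06 to 12.57. AT3G28510 had 10.53, 11.40, 11.49 and 10.43 on the SA arrays at 3, 6, 12 and 24 h, against 3.99 and 4.19 on the Silwet arrays at 6 and 12 h and 3.95 on the untreated array, a difference of 7.31 at 12 h. AT3G13610 (F6'H1), the hydroxylase that commits feruloyl-CoA to coumarins such as scopoletin, had 10.86 on the SA array and 5.76 on the Silwet array, a difference of 5.10. CHI (AT2G43570), a chitinase gene, had 11.95 on the SA array and 7.37 on the Silwet array and was 24-fold higher with SA. GH3.3, which conjugates amino acids to auxin, had 8.91 on the SA array and 4.90 on the Silwet array, a difference of 4.01 beside 6.29 at 6 h. It was the one member past 2-fold of 5 GH3 amido synthetases. Of the unnamed loci, AT5G38900 differed by 5.12, AT1G10585 by 4.92, AT3G01830 by 4.65, AT1G43910 by 4.61 and AT2G32190 by 4.61. AT5G46230, AT1G57630, AT1G51890, AT1G08050, AT5G39520, AT3G47540 and AT4G39670 differed by 4.18 to 4.48. All 20 were at least 2-fold above the untreated array on the SA array at 12 h, and 15 still were at 24 h.

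Genes of the jasmonate and ethylene branch lay on the other side. Of 8 measured genes of that list, 4 were at least 2-fold lower on the SA array and none higher, all 8 had a negative difference, and the median was -0.87. In the 6 h pair 2 of the 8 were lower and none higher, with a median of -0.55. PDF1.2, a plant defensin gene and the usual marker of the branch, had 6.66, 7.88, 5.09 and 4.45 on the SA arrays at 3, 6, 12 and 24 h, against 9.09 and 10.42 on the Silwet arrays at 6 and 12 h and 6.24 on the untreated array. It was 40.0-fold lower on the SA array at 12 h, the largest negative difference of all. The Silwet level at 12 h exceeded the untreated level by 4.17, and the SA level at 12 h was -1.15 from it, so the arrays of the pair stood on opposite sides of untreated leaves. PDF1.2b had 6.75 on the SA array and 11.78 on the Silwet array, a difference of -5.03; its probe set can read near-identical copies, so the pair cannot be read as independent. PDF1.4 (-1.20) and JAL23, a jacalin-related lectin (-1.30), were also lower. Against the untreated array in place of Silwet, JAL23 differed by only -0.05. PDF1.4 had 5.22, 5.42, 5.42 and 6.94 on the SA arrays at 3, 6, 12 and 24 h, against 5.16 and 6.62 on the Silwet arrays at 6 and 12 h and 5.38 on the untreated array, so that the Silwet array at 12 h, not the SA array, was the one apart from untreated. The thionin genes THI2.1 (-0.54) and THI2.2 (-0.29), the defensin gene LCR67 (PDF1.1, -0.31) and the jasmonate methyltransferase gene JMT (-0.21) stayed within 2-fold.

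Over the wider group of 15 defensins, thionins and low-molecular-weight cysteine-rich peptides, which includes 6 genes of the jasmonate list, 4 were lower and none higher. LCR69 had 8.37, 9.87, 8.98 and 6.82 on the SA arrays at 3, 6, 12 and 24 h, against 12.25 and 11.04 on the Silwet arrays at 6 and 12 h and 7.42 on the untreated array, a difference of -2.05 at 12 h. Both Silwet arrays of LCR69 stood above untreated leaves, and so did the SA array at 12 h. A pair of loci without a symbol also stood highest on the Silwet arrays. AT2G43550 had 8.61, 7.92, 7.18 and 7.83 on the SA arrays at 3, 6, 12 and 24 h, against 12.36 and 11.49 on the Silwet arrays at 6 and 12 h and 7.44 on the untreated array, a difference of -4.31. AT4G17470 had 5.52 on the SA array and 8.94 on the Silwet array and 5.49 on the untreated array, so SA and untreated leaves stood together and Silwet apart.

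Chaperones and quality control factors of the endoplasmic reticulum (ER) were higher with SA where they passed 2-fold. Of 14 probe sets for 13 genes, 4 were at least 2-fold higher, none was lower, 12 had a positive difference, and the median was 0.70. ATERDJ3B, a DnaJ co-chaperone of BiP, had 12.22, 13.08, 11.66 and 11.38 on the SA arrays at 3, 6, 12 and 24 h, against 10.67 and 9.39 on the Silwet arrays at 6 and 12 h and 9.32 on the untreated array, a difference of 2.28. CRT1b, a calreticulin, had 10.61 on the SA array and 8.78 on the Silwet array, a difference of 1.84 that was 0.90 with the mean of both Silwet arrays or the untreated array as control. BZIP60, the transcription factor activated in ER stress by IRE1 splicing, had 11.16 on the SA array and 9.38 on the Silwet array, a difference of 1.77, and the untreated array stood at 11.12, level with the SA array. ATERDJ2B, of the translocon, differed by 1.31. The other ER-stress factors BZIP28 (0.91) and BZIP17 (0.30) and the degradation factor OS9 (0.94) stayed within 2-fold. In the 6 h pair 7 of the 14 were higher, with a median of 1.19.

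Along the secretory path, 5 of 34 genes of vesicle traffic were higher and 2 lower, around a median of 0.17. The shares over all named probe sets were 5.98% higher and 6.01% lower, and the lower count is near that share. AT1G18830 (SEC31A), a subunit of the COPII coat that carries cargo out of the ER, had 4.74, 5.99, 9.45 and 4.50 on the SA arrays at 3, 6, 12 and 24 h, against 4.27 and 4.58 on the Silwet arrays at 6 and 12 h and 4.72 on the untreated array. Its difference at 12 h was 4.87, and no other array came within 4-fold of its level on the SA array at 12 h. Its paralogue AT3G63460 (SEC31B) had 9.19 on the SA array and 8.41 on the Silwet array, a difference of 0.79. The other higher genes were SEC1B (1.52), a Sec1-type regulator of fusion, the synaptotagmin gene ATSYTF (1.39), PRA1.B4 (1.36) and the SNARE gene SEC22 (1.14), and the lower ones were PRA1.F1 (-1.22) and AtSec20 (-1.18).

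Genes of bulk and vacuolar degradation were examined next. Of 10 genes of the ATG8 conjugation group, whose products build the autophagosome, ATG8B (2.27), ATG8H (1.48) and APG8A (1.37) were higher and none was lower, around a median of 0.49, which was 1.5 against the untreated array. ATG8B had 8.76, 10.05, 10.27 and 8.51 on the SA arrays at 3, 6, 12 and 24 h, against 7.07 and 8.0 on the Silwet arrays at 6 and 12 h and 6.97 on the untreated array. Of 12 ESCRT subunits, which sort membrane proteins into multivesicular bodies, VPS60.1 (1.52), VPS24.1 (1.3) and VPS20.1 (1.09) were higher and none was lower, around a median of 0.33. None of 12 ubiquitin-specific proteases passed 2-fold in either direction, yet 11 had a positive difference and their median was 0.49; UBP27 (0.92) and UBP21 (0.88) were the highest. Of 12 ubiquitin-conjugating enzymes, UBC22 (-1.03) was lower and none was higher. Beside these counts, 5.98% of all named probe sets were higher and 6.01% lower.

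Cytosolic chaperones split. Of 11 heat shock protein and co-chaperone genes, 3 were higher and 3 lower. Hsp70-2, a cytosolic Hsp70, had 11.66, 11.48, 10.11 and 10.58 on the SA arrays at 3, 6, 12 and 24 h, against 7.42 and 7.28 on the Silwet arrays at 6 and 12 h and 7.78 on the untreated array, a difference of 2.83. Hop2, which links Hsp70 to Hsp90, and the mitochondrial J-protein gene ATJ1 were higher by 1.08 and 1.39. Hop3 lay on the other side, with 8.10, 8.10, 4.81 and 6.42 on the SA arrays at 3, 6, 12 and 24 h, against 4.78 and 7.91 on the Silwet arrays at 6 and 12 h and 4.08 on the untreated array. Its difference was -3.11 at 12 h and 3.32 at 6 h, since the Silwet array was low at 6 h and high at 12 h while the SA array was high at 6 h and low at 12 h. Fes1A, a nucleotide exchange factor of Hsp70, had the same arrangement, with differences of -1.54 at 12 h and 3.23 at 6 h, and Fes1B differed by -1.61 at 12 h.

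Respiratory genes were higher with SA where they differed. Of 13 probe sets for isocitrate and succinate dehydrogenase subunits and cytochrome c, 5 were at least 2-fold higher, none was lower, and the median was 0.69. CYTC-2, a cytochrome c gene, had 9.39 on the SA array and 7.36 on the Silwet array, a difference of 2.03, but untreated leaves stood at 9.89, above the SA array. CYTC-1 had 11.66, 12.32, 12.69 and 11.86 on the SA arrays at 3, 6, 12 and 24 h, against 11.07 and 11.29 on the Silwet arrays at 6 and 12 h and 11.22 on the untreated array, a difference of 1.4 with the SA arrays above the others at every time. IDH-VI, an isocitrate dehydrogenase subunit, differed by 1.64 and SDH1-1, the flavoprotein of complex II, by 1.42. NDB2, an external NADH dehydrogenase of the inner membrane, had 11.28, 11.81, 10.68 and 10.42 on the SA arrays at 3, 6, 12 and 24 h, against 7.67 and 7.47 on the Silwet arrays at 6 and 12 h and 8.65 on the untreated array, and was 9.22-fold higher on the SA array at 12 h. The other 4 alternative dehydrogenases, NDB1, NDB3, NDB4 and NDC1, lay between -0.01 and 0.20. Of 23 probe sets for mitochondrion-encoded genes, cox2 (1.63), nad4L (1.23) and nad6 (1.13) were higher and none was lower, around a median of 0.21. The shares over all named probe sets were 5.98% higher and 6.01% lower. Beside the mitochondrion-encoded genes, the 25S ribosomal RNA control differed by -0.98 within the pair, and its part in the organelle values was not tested.

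Photosynthesis genes of the nucleus were lower with SA where they differed, and those of the chloroplast genome stayed within 2-fold. Of 13 nuclear genes for photosystems, light harvesting and the Calvin cycle, 2 were lower, none was higher, 12 had a negative difference, and the median was -0.28. LHCB4.2, an antenna protein of photosystem II, had 13.29, 12.82, 10.44 and 13.30 on the SA arrays at 3, 6, 12 and 24 h, against 13.50 and 11.99 on the Silwet arrays at 6 and 12 h and 13.66 on the untreated array, a difference of -1.56. PSAN, a lumenal subunit of photosystem I, had 11.67 on the SA array and 12.99 on the Silwet array, a difference of -1.32. For both genes the pair at 12 h held their lowest SA and lowest Silwet levels of the series. PSB27 (-0.97) and PSBY (-0.89) stayed just within 2-fold, and RCA, Rubisco activase, differed by -0.10. All 69 probe sets of the chloroplast genome lay between -0.70 and 0.44, around a median of -0.12.

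Factors that assemble photosystems and the chloroplast NDH complex were the photosynthetic group with the most members past 2-fold by count, though not by share of members. Of 15 genes, 5 were lower, none was higher, 14 had a negative difference, and the median was -0.69, against -1.82 in the 6 h pair with 11 lower. NdhL, an NDH subunit, had 10.23, 9.40, 10.13 and 10.68 on the SA arrays at 3, 6, 12 and 24 h, against 11.29 and 11.65 on the Silwet arrays at 6 and 12 h and 11.29 on the untreated array, a difference of -1.52. CRR21, an RNA editing factor for an NDH subunit, had 6.12 on the SA array and 7.48 on the Silwet array, a difference of -1.36 at 12 h beside -4.11 at 6 h. LPA19 (-1.34) and LPA2 (-1.27), assembly factors of photosystem II, and NdhN (-1.04) were also lower. Of 11 genes of chlorophyll and tetrapyrrole synthesis, 4 were lower and none higher, around a median of -0.46. They were PORB (-1.59), which reduces protochlorophyllide in the light, the magnesium chelatase subunit gene CHLI2 (-1.40), the methyltransferase gene CHLM (-1.11) and hemf2 (-1.05), for a coproporphyrinogen oxidase. PORB had 9.39 on the SA array and 10.98 on the Silwet array, and 10.08 on the untreated array, between the arrays of the pair.

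Starch and glucosinolate genes held single large differences. Of 10 probe sets for starch and sucrose metabolism, 3 were lower and 1 higher. DPE1, the plastid disproportionating enzyme of starch breakdown, had 7.18, 7.45, 7.17 and 5.53 on the SA arrays at 3, 6, 12 and 24 h, against 10.39 and 9.68 on the Silwet arrays at 6 and 12 h and 6.90 on the untreated array, a difference of -2.50. The SA level of DPE1 at 12 h lay close to untreated leaves and the Silwet level above them. The dikinase gene PWD (AT5G26570) differed by -1.66 and the branching enzyme gene SBE2.2 by -1.17, while cwINV6 of the cell wall invertase family had 8.81 on the SA array and 6.33 on the Silwet array, a difference of 2.47. Of 7 glucosinolate genes, BCAT4 and AOP1 were lower and none was higher. BCAT4, the aminotransferase that starts methionine chain elongation, had 10.12, 9.49, 7.62 and 11.11 on the SA arrays at 3, 6, 12 and 24 h, against 11.20 and 11.08 on the Silwet arrays at 6 and 12 h and 10.43 on the untreated array, and was 11-fold lower on the SA array at 12 h. AOP1 differed by -1.13.

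Genes of the cytoskeleton and of wall extension were mostly lower with SA where they passed 2-fold. Of 7 tubulins, 4 beta-tubulin genes were lower, none was higher, and the median was -1.48, the lowest of the 44 families described. TUB5 had 9.51, 8.86, 8.56 and 8.61 on the SA arrays at 3, 6, 12 and 24 h, against 11.62 and 11.44 on the Silwet arrays at 6 and 12 h and 10.47 on the untreated array, and was 7.36-fold lower with SA at 12 h. TUB6 had 8.40 on the SA array and 10.37 on the Silwet array, a difference of -1.97, and TUB7 (-1.67) and TUB1 (-1.48) were lower too. TUA6 (-0.75), TUB9 (-0.14) and TUA1 (0.03) stayed within 2-fold. Related tubulin genes can share probes, so their values may not be independent.

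Of 15 endoglucanases of glycoside hydrolase family 9, which trim wall glucans, GH9B8 (-2.44), GH9C2 (-2.22) and GH9B7 (-1.76) were lower and none was higher. GH9C2 had 8.56, 7.02, 5.96 and 9.39 on the SA arrays at 3, 6, 12 and 24 h, against 10.88 and 8.18 on the Silwet arrays at 6 and 12 h and 11.06 on the untreated array. Of 28 expansins and xyloglucan endotransglucosylases, which loosen and remodel the wall, EXLA1 (-1.75), EXPA8 (-1.74), EXPA4 (-1.25) and EXPA16 (-1.04) were lower and XTH29 (1.77) was higher. Of 22 trichome birefringence-like genes, which acetylate wall polymers, TBL45 (-1.68), TBL26 (-1.39) and TBL36 (-1.0) were lower and none was higher. CSLC5, of xyloglucan backbone synthesis, was the one member of 8 cellulose synthase-like genes past 2-fold, at -1.57. In these wall families the members past 2-fold were a minority, beside 5.98% higher and 6.01% lower over all named probe sets. The family medians lay between -0.30 and -0.11.

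Secreted signal peptides, membrane organisers and the other families of this group held few members past 2-fold. Over all named probe sets 5.98% were higher and 6.01% lower, so these small counts are not read as family traits. Of 11 RALF-like peptides, which signal through receptor kinases of the wall, RALFL34 had 9.24, 8.21, 7.57 and 9.89 on the SA arrays at 3, 6, 12 and 24 h, against 11.37 and 10.19 on the Silwet arrays at 6 and 12 h and 10.78 on the untreated array, a difference of -2.62. RALFL24 (-1.85) and RALFL22 (-1.01) were also lower and RALFL32 (1.09) was higher. Of 15 tetraspanins, TET8, known from extracellular vesicles, was 1.71 higher, with 11.97 on the SA array and 10.26 on the Silwet array and 12.27 on the untreated array, and TET10 (-1.36) and TET7 (-1.25) were lower. Of 15 IQ-domain proteins, which bind calmodulin and microtubules, iqd21 (-2.17), IQD22 (-1.62) and IQD30 (-1.05) were lower and none was higher. Of 29 serine carboxypeptidase-like genes, scpl16 (3.20) and scpl46 (2.15) were higher and scpl25 (-2.0), SCPL34 (-1.81) and scpl50 (-1.11) lower. Of 22 beta-glucosidases of family 1, BGLU25 (3.06), BGLU45 (2.88) and BGLU31 (2.52) were higher, and BGLU44 (-1.31) and PYK10 (-1.24), which lay below the array median on both arrays, were lower.

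Among the genes listed for the stomatal lineage, STOMAGEN was far lower with SA. It encodes a peptide that mesophyll secretes and that promotes stomata, and had 6.12, 4.99, 6.40 and 8.38 on the SA arrays at 3, 6, 12 and 24 h, against 9.34 and 10.40 on the Silwet arrays at 6 and 12 h and 9.72 on the untreated array. Its level was 16-fold lower on the SA array at 12 h, and every SA array lay below every array without SA. The lineage regulators FMA (FAMA), SPCH and MUTE differed by -0.78, -0.33 and -0.15. SPCH and MUTE lay below the array median on all 7 arrays, in leaves that were fully expanded. The log2 values of the 4 listed genes summed to 23.3 on the SA array and 28.6 on the Silwet array at 12 h. Most of that difference was STOMAGEN, a mesophyll product, so the sum is no measure of lineage cells. The phloem loading gene SWEET11 read 11.61 on the SA array and 12.31 on the Silwet array. The trichome gene TRY read 5.82 and 5.82, below the array median on both, beside 8.89 on the untreated array.

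Hormone and stress families showed differences in both directions. Of 11 cold- and dehydration-induced genes, 3 were higher and 4 lower. LTI30, a dehydrin, had 9.04, 11.71, 8.47 and 6.52 on the SA arrays at 3, 6, 12 and 24 h, against 9.71 and 5.42 on the Silwet arrays at 6 and 12 h and 6.08 on the untreated array, a difference of 3.05 that became 0.91 with the mean of both Silwet arrays as control. COR15A, a chloroplast protectant in the cold, had 10.11 on the SA array and 12.52 on the Silwet array, a difference of -2.41, and its neighbour COR15B differed by -1.04. COR27, of the cold response and clock, had 4.49, 9.93, 9.90 and 5.52 on the SA arrays at 3, 6, 12 and 24 h, against 10.17 and 11.69 on the Silwet arrays at 6 and 12 h and 5.27 on the untreated array, so that both arrays of the pair stood far above untreated leaves and the difference between them was -1.79. RD2 (1.82) and LEA4-5 (1.29) were higher and HVA22C (-1.64) lower.

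Of 16 bZIP factors, HYH (2.17), BZIP60 (1.77) and BZIP53 (1.01) were higher and BZIP61 (-2.33) and BZIP34 (-1.08) lower. HYH, the homologue of the light regulator HY5, had 9.47, 8.71, 7.01 and 9.33 on the SA arrays at 3, 6, 12 and 24 h, against 5.14 and 4.85 on the Silwet arrays at 6 and 12 h and 9.93 on the untreated array. The SA arrays lay closer to untreated leaves than the Silwet arrays did, so the positive difference of HYH went with low Silwet levels. Of 14 SWEET sugar carriers, SWEET4 (1.44) was higher and the vacuolar fructose carrier gene SWEET17 (-1.25) lower, around a median of -0.06. These shares are near the 5.98% higher and 6.01% lower over all named probe sets. Of 7 Aux/IAA repressors of auxin signalling, IAA29 (-1.41) was lower and none was higher.

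Across the 44 families, 647 probe sets were members of at least 1. Of these 647, 70 were higher and 77 lower at 2-fold, a larger share than the 808 and 812 of all 13513 named probe sets (5.98% and 6.01%). In 7 families at least 3 members were higher and none lower: SA-induced genes, calmodulin-like proteins, ER folding genes, the ATG8 group, ESCRT subunits, the dehydrogenase and cytochrome c group and mitochondrion-encoded genes. In 8 families at least 3 were lower and none higher: jasmonate and ethylene genes, the defensin group, photosystem and NDH assembly, chlorophyll synthesis, tubulins, family 9 endoglucanases, trichome birefringence-like genes and IQ-domain proteins. Members past 2-fold in both directions were found in 16 families, and in 2 families, ubiquitin-specific proteases and chloroplast-encoded genes, none passed. These families were chosen with results of these data known, so the counts describe them and do not set them apart from other genes.

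**Figure D2:**
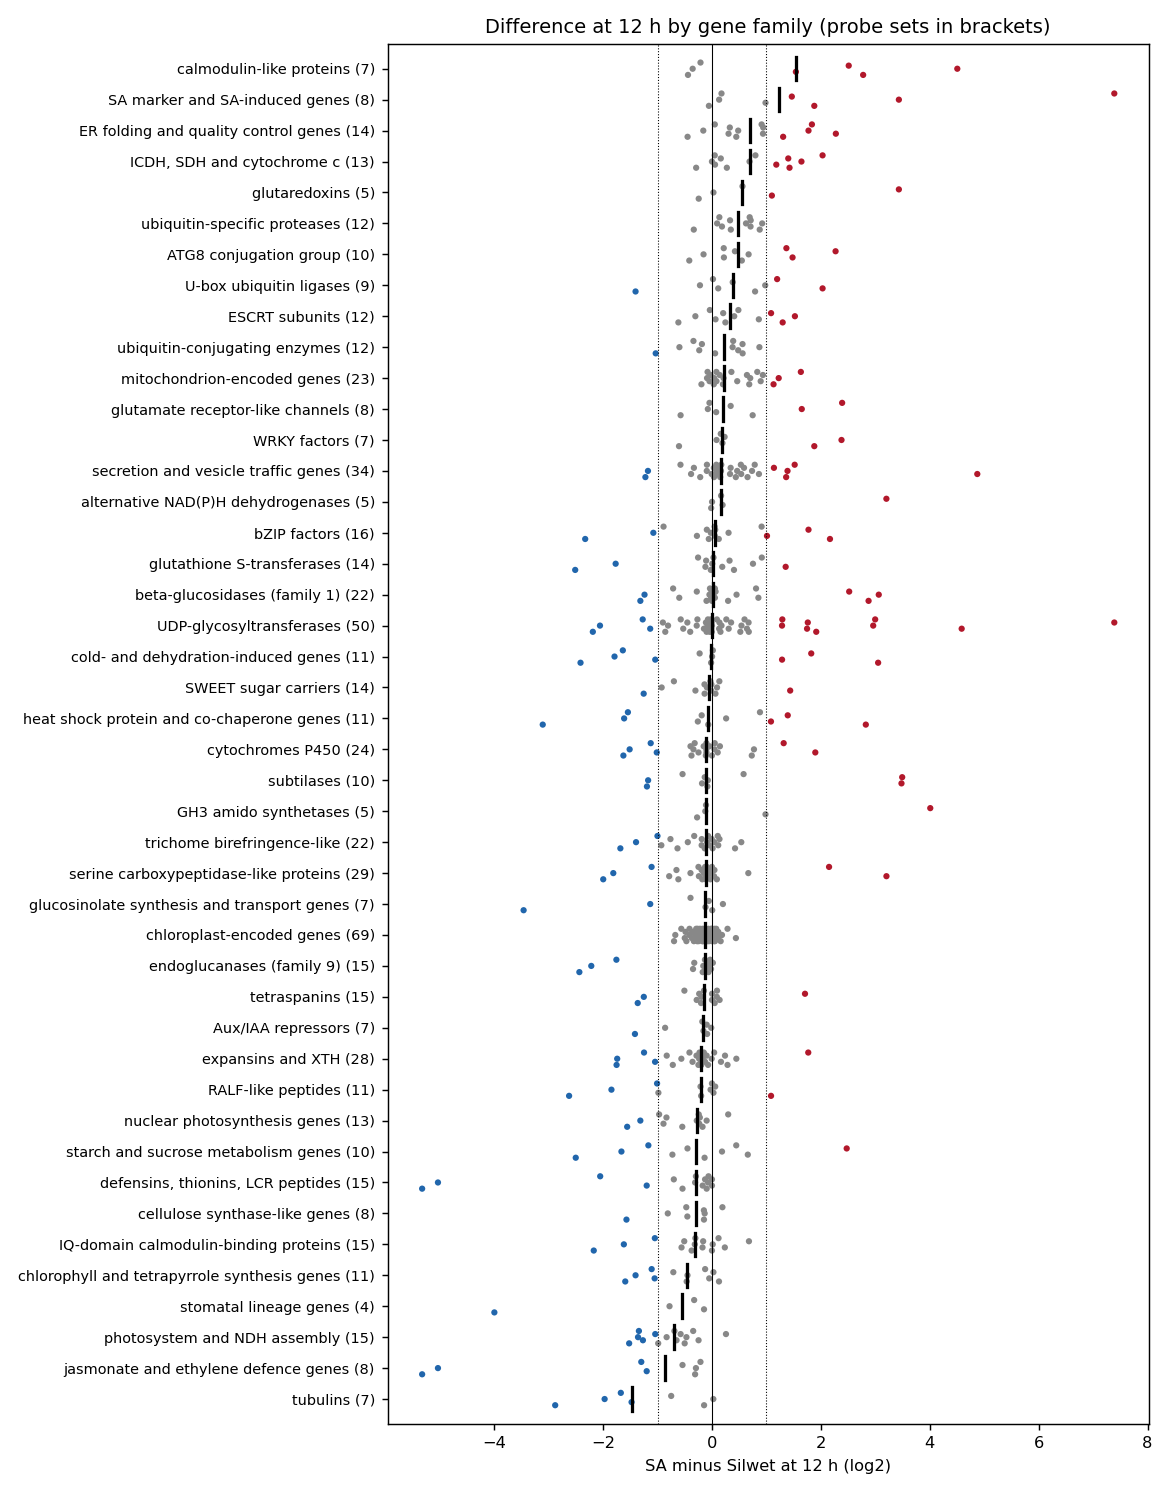
Each row is a gene family with its number of probe sets in brackets, ordered by the median difference (black bar), and each point is the log2 difference SA minus Silwet at 12 h of 1 probe set, with dotted lines at 2-fold. The medians run from 1.54 for the calmodulin-like proteins to -1.48 for the tubulins, and UGT76B1 at 7.39 and PDF1.2 at -5.32 are the extremes.

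The 20 largest lower differences among the brighter probe sets ran from -5.32 to -3.04, and 15 of the 20 had no symbol. Besides PDF1.2, PDF1.2b, STOMAGEN, BCAT4 and Hop3, AT3G16370 had 11.92, 9.52, 7.42 and 12.34 on the SA arrays at 3, 6, 12 and 24 h, against 12.61 and 12.13 on the Silwet arrays at 6 and 12 h and 13.07 on the untreated array, a difference of -4.70. AT2G10940 had 8.36 on the SA array and 12.66 on the Silwet array, a difference of -4.30, and AT1G66100 had 7.69 on the SA array and 12.00 on the Silwet array, a difference of -4.31. The adjacent genes AT1G29660 and AT1G29670 were both among the 20, at -3.92 and -4.03. AT1G04040 (-4.19), AT3G28220 (-4.18), AT5G13140 (-4.11) and AT1G78450 (-3.64) followed, and AT4G17470, AT1G12845, AT5G44020, AT3G05900 and AT1G09310 lay between -3.41 and -3.04. In 17 of the 20 the SA array at 12 h was at least 2-fold away from untreated leaves, and in 8 the Silwet array was within 2-fold of them.

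How the 12 h differences related to those at 6 h was examined with the 6 h pair, which shares no array with the 12 h pair. At 6 h 8.65% of the named probe sets were at least 2-fold higher with SA and 8.68% lower, 1169 and 1173 in all. Of the 808 higher at 12 h, 610 were also higher at 6 h, which is 75.5% of the 12 h list and 52.2% of the 6 h list. Of the 812 lower at 12 h, 551 were also lower at 6 h, 67.9% of the 12 h list and 47.0% of the 6 h list. A further 196 and 256 were within 2-fold at 6 h. In the opposite direction at 6 h stood 2 of the 808 and 5 of the 812. The 808 had median differences of 1.5 at 12 h and 1.66 at 6 h, and the 812 of -1.35 and -1.38. Whether any gene differed between the times more than replicates would could not be tested with 1 array per condition.

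**Figure D3:**
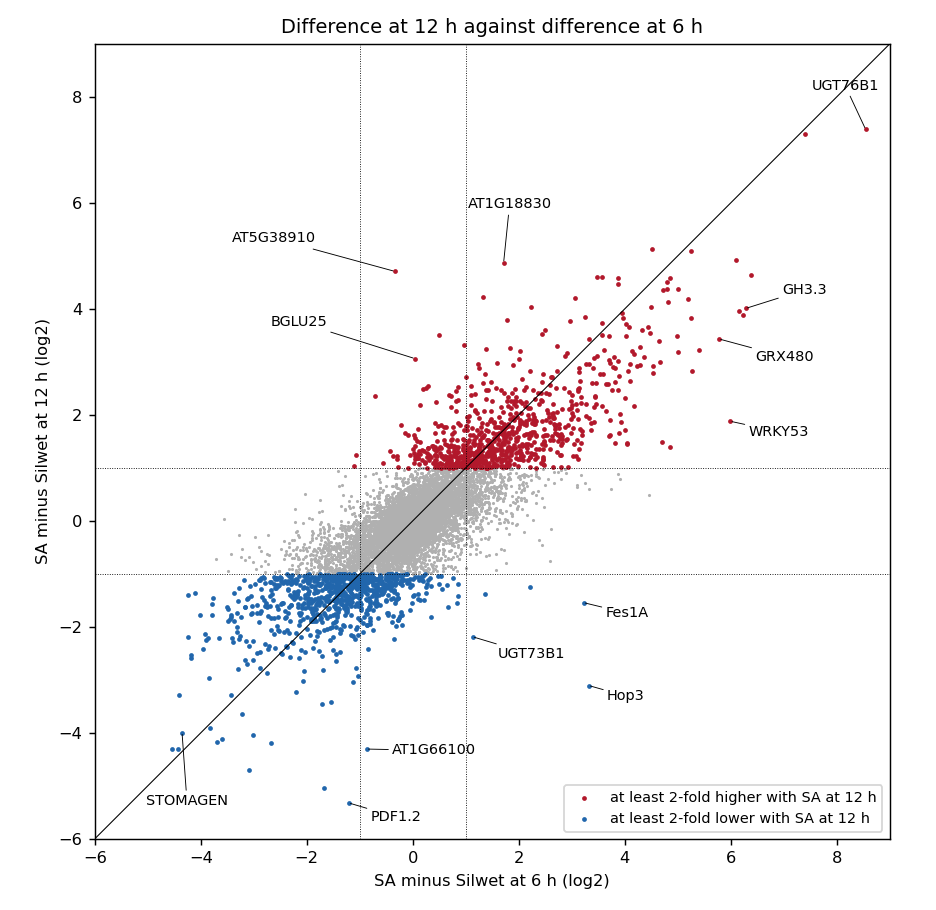
Each point is 1 of 13513 probe sets, with its log2 difference SA minus Silwet at 6 h (horizontal axis) and at 12 h (vertical axis); dotted lines mark 2-fold and the diagonal marks equal differences. Most coloured points share the sign of both axes, as for the 610 higher and 551 lower at both times, while AT5G38910 (4.71 at 12 h, -0.34 at 6 h) lies at the vertical axis and Hop3 (-3.11 and 3.32) in the opposite quadrant.

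A few genes had a 12 h difference with little or none at 6 h. AT5G38910 had 5.39, 4.86, 9.94 and 5.81 on the SA arrays at 3, 6, 12 and 24 h, against 5.20 and 5.23 on the Silwet arrays at 6 and 12 h and 5.38 on the untreated array. Its difference was 4.71 at 12 h and -0.34 at 6 h, whereas the adjacent AT5G38900 differed by 5.12 and 4.51, at both times. BGLU25, a beta-glucosidase gene, had 8.43, 8.57, 11.16 and 8.43 on the SA arrays at 3, 6, 12 and 24 h, against 8.53 and 8.10 on the Silwet arrays at 6 and 12 h and 7.88 on the untreated array, differences of 3.06 at 12 h and 0.04 at 6 h. AT2G38240 differed by 3.52 at 12 h and 0.50 at 6 h, and AT4G21740 by 3.31 and 0.97. AT3G51750 differed by 2.35 at 12 h and -0.72 at 6 h, and its lowest array was Silwet at 12 h. On the lower side AT1G66100 had 11.31, 10.75, 7.69 and 12.76 on the SA arrays at 3, 6, 12 and 24 h, against 11.62 and 12.00 on the Silwet arrays at 6 and 12 h and 12.71 on the untreated array, and differed by -4.31 at 12 h and -0.87 at 6 h.

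Others had most of their difference at 6 h. WRKY53, GRX480 and GH3.3 were among them, and AT2G29500 had 8.65, 9.51, 5.58 and 6.49 on the SA arrays at 3, 6, 12 and 24 h, against 5.04 and 5.09 on the Silwet arrays at 6 and 12 h and 4.91 on the untreated array, a difference of 0.49 at 12 h beside 4.46 at 6 h. AT4G13180 differed by 1.4 at 12 h and 4.85 at 6 h. ATSPS4F, a sucrose phosphate synthase gene, had 8.87 on the SA array and 9.60 on the Silwet array at 12 h, a difference of -0.73 beside -3.72 at 6 h. AT3G28270 differed by 0.04 at 12 h and -3.56 at 6 h, TBL26 by -1.39 and -4.25, and AT1G13650 by -0.27 and -3.27. For AT1G13650 and TBL26 the Silwet level itself was lower at 12 h than at 6 h.

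The SA array at 12 h was also set against all other 6 arrays. It stood at least 2-fold above every one of them for 31 probe sets and below every one for 37. The same counts were 137 above and 8 below for SA at 3 h, 24 and 41 for SA at 6 h, 11 and 17 for SA at 24 h, 70 and 53 for Silwet at 6 h, 65 and 24 for Silwet at 12 h, and 107 and 30 for the untreated array, so that excursions of this kind occurred on every array. At 4-fold there were 5 above on the SA array at 12 h, AT5G38910, AT1G18830, AT4G21740, BGLU25 and AT3G19390, and 4 below, AT1G66100, AT1G09310, MSRB6 and AT3G16370. MSRB6, a methionine sulfoxide reductase, had 10.13, 8.63, 5.80 and 11.21 on the SA arrays at 3, 6, 12 and 24 h, against 11.36 and 8.22 on the Silwet arrays at 6 and 12 h and 9.61 on the untreated array. Its difference at 12 h was -2.42, and its neighbour MSRB5 differed by -1.45. AT1G09310 had 13.37, 12.44, 9.23 and 12.90 on the SA arrays at 3, 6, 12 and 24 h, against 13.56 and 12.28 on the Silwet arrays at 6 and 12 h and 13.38 on the untreated array. Without a second array, a response at 12 h and a peculiarity of this sample cannot be told apart.

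**Figure D4:**
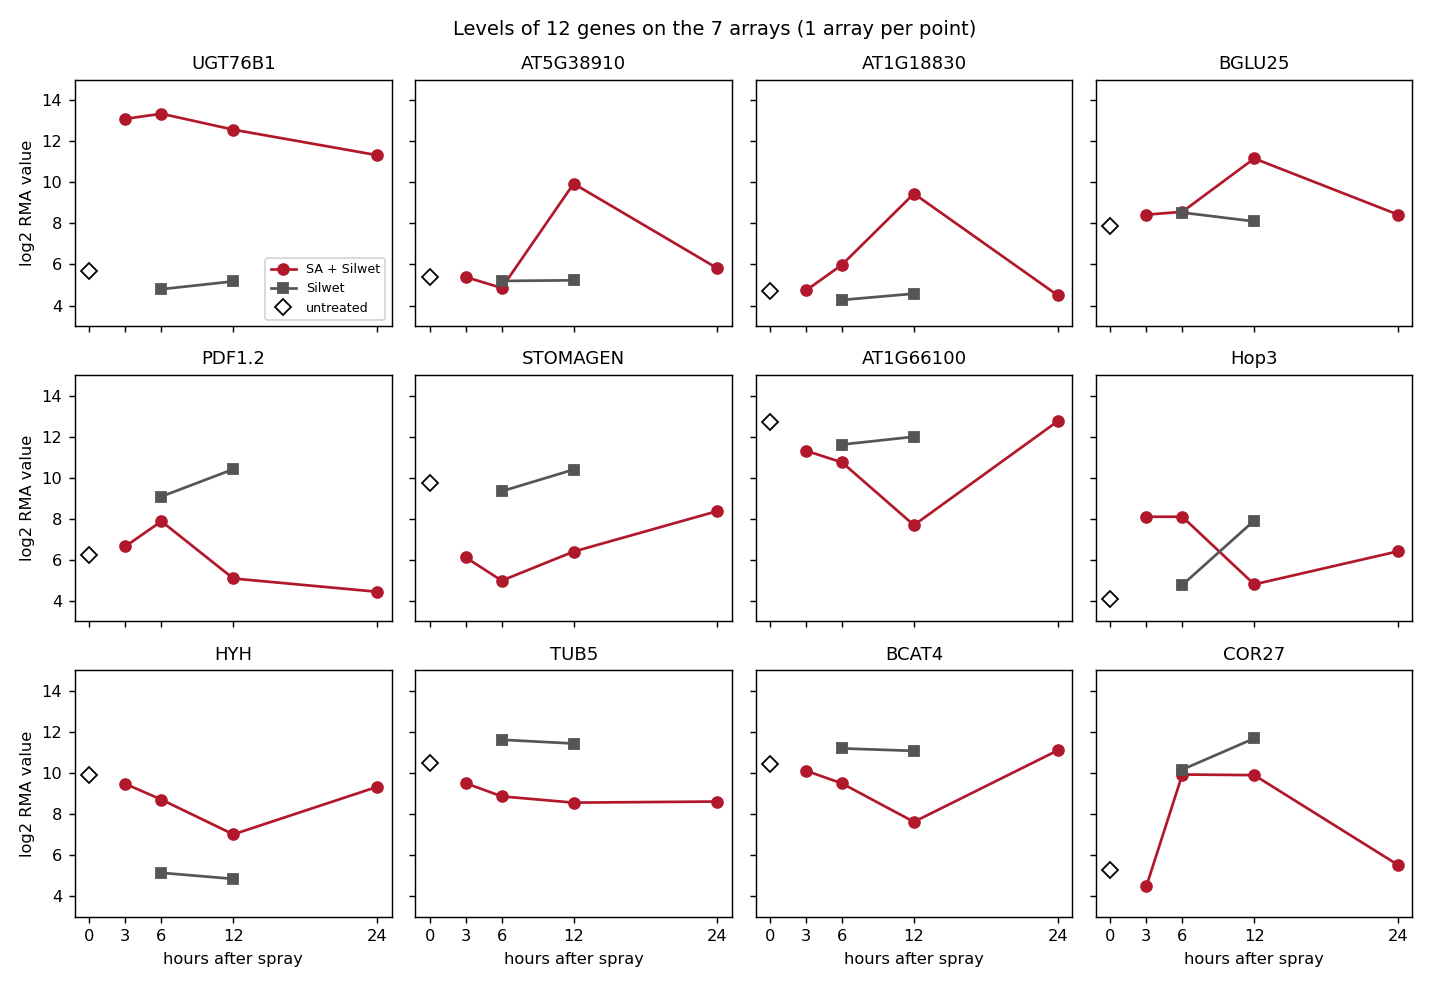
The log2 RMA values of 12 genes are drawn against hours after spraying, 1 array per point, for SA + Silwet (red circles), Silwet (grey squares) and untreated leaves (open diamond at 0 h). UGT76B1 stays high on all SA arrays (11.33 to 13.10), AT5G38910, AT1G18830 and BGLU25 peak on the SA array at 12 h, and the Silwet array at 12 h is high for PDF1.2 (10.42) and Hop3 (7.91).

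Which array of the pair stood apart was described with the untreated array. Both arrays of the pair are set against that same array, which was taken just before spraying, so the values are shown side by side and hour of day, spraying and treatment cannot be told apart in them. Of the 808 higher probe sets, 525 (65.0%) were at least 2-fold above untreated leaves on the SA array with the Silwet array within 2-fold, as for UGT76B1. In 84 (10.4%) the Silwet array was at least 2-fold below untreated leaves and the SA array within 2-fold. CML38 was of this kind, with 7.84 on the SA array and 5.33 on the Silwet array and 8.59 on the untreated array. Both arrays stood above untreated leaves for 29, both below for 32, among them HYH and WRKY53, opposite ways for 23, and both within 2-fold for 115.

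For the 812 lower probe sets the share on the Silwet side was larger. In 366 (45.1%) the SA array was at least 2-fold below untreated leaves and the Silwet array within 2-fold, as for STOMAGEN. In 148 (18.2%) the Silwet array was at least 2-fold above untreated leaves and the SA array within 2-fold. DPE1, Hop3, AT2G43550 and AT4G17470 were of this kind. Both stood below for 79, both above for 19, among them COR27, opposite ways for 11, among them PDF1.2, and both within 2-fold for 189.

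Over time, the 808 had median values above untreated leaves of 1.38, 1.56, 1.45 and 0.79 on the SA arrays at 3, 6, 12 and 24 h, against 0.01 and -0.10 on the Silwet arrays at 6 and 12 h. For the 812 the medians were -0.86, -1.25, -1.14 and -0.60 on the SA arrays at 3, 6, 12 and 24 h, against 0.04 and 0.31 on the Silwet arrays at 6 and 12 h. The 12 h values were used to choose the probe sets and are given as a description. At 24 h the SA array was at least 2-fold above untreated leaves for 305 of the 808 (37.7%) and below for 199 of the 812 (24.5%). It was past 2-fold the other way for 33 and 16. Not all of the 808 and 812 were past 2-fold from untreated leaves on the SA array at 12 h, so these shares do not measure persistence. The same shares over all named probe sets were not computed.

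**Figure D5:**
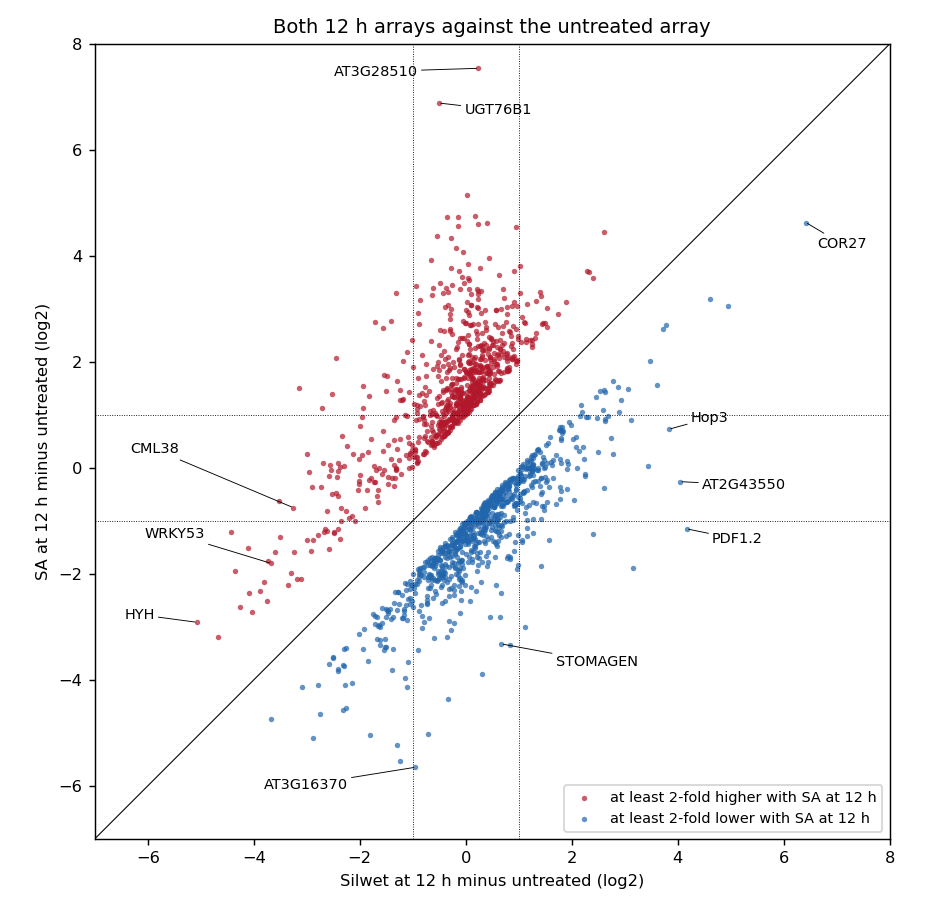
Each point is 1 probe set past 2-fold at 12 h (808 higher in red, 812 lower in blue), with the log2 value of the Silwet array at 12 h minus the untreated array (horizontal axis) and of the SA array at 12 h minus the same untreated array (vertical axis); dotted lines mark 2-fold. UGT76B1 and STOMAGEN lie near the vertical axis, where SA stands apart from untreated leaves, Hop3 and AT2G43550 lie to the right, where Silwet does, and HYH and COR27 lie where both do.

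Adjacent protein-coding genes were compared. Of 5845 neighbouring pairs in which both genes were measured, both were higher in 42, both lower in 38, and opposite in 42. At least 1 member was higher in 736 of the pairs and lower in 747. A pair has more than 1 member, so these counts cannot be compared with the 5.98% and 6.01% of single probe sets. The number of pairs of each kind to be met without any link between neighbours was not computed, so the counts are a description only. Pairs on the higher side included UGT73B5 and UGT73B4, UGT73D1 and UGT73C7, SBT3.5 and AT1G32950, and AT3G62590 (2.03) beside ATERDJ3B. COR15B and COR15A, MSRB5 and MSRB6, and AT5G64850 (-1.07) beside DPE1 were pairs on the lower side. WRKY53 (1.88) lay beside AT4G23820 (-2.78), and CYTC-2 (2.03) beside AT4G10030 (-1.78), as examples of opposite pairs. Tandem copies may share probes, and no test of the pairs was made.

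More than 1 probe set named the same gene for 145 genes. In 9 of them all probe sets were past 2-fold in the same direction, in 16 only some were, and in none were they past 2-fold in opposite directions.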

How the data were processed

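Total RNA from mature leaves was hybridised to 7 Affymetrix ATH1 arrays, 1 for each condition. The authors deposited log2 values per probe set. The submitters' processing notes name RMA and the affy package, without a version. RMA subtracts background, forces 1 distribution on all arrays by quantiles and combines the probes of a set, so a shift of most transcripts in 1 direction would be hidden. Genome build and array annotation version are not given in the sources used here. Arrays have no read depth, and their number limits the precision.

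Genes were named from the platform annotation, in which 13513 probe sets name 1 gene, 503 several and 8794 (with the controls) none. RefSeq's gene table, matched on gene numbers, gave current symbols for 13436 of the 13513. A name was available as a symbol for 1580, and the other 11933 carry their locus. No sequence was used.

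The difference of the deposited log2 values was computed for each probe set with pandas 2.3.3 and numpy 2.4.6 in Python 3.11.15, and called past 2-fold. The arithmetic was tested on simulated data. With 1 array per condition no test was possible. Alternatives were a brightness filter, all probe sets, 1 probe set per gene, centring on the median or by loess (statsmodels 0.14.6, share 0.4), and the mean of both Silwet arrays or the untreated array as control.

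Named genes were the 20 largest differences each way among probe sets whose brighter array of the pair lay above its median, up to 4 per family of at least 3 members, and the 8 largest each way of the 12 h minus the 6 h difference. The members, lists and families were chosen with earlier results of these data known. After the values were seen, family patterns were trimmed of stray matches, families were regrouped and 11 of the 44 were added; 1 further family is not reported here. The comparison with the untreated array, the neighbouring pairs, the count of genes standing apart on 1 array, the plotted time courses and other genes named in the text were also chosen then.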

Additional observations from a re-analysis of the deposited data

Results flagged for a closer look

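For 7 probe sets the SA minus Silwet difference was past 2-fold in opposite directions in the 12 h and the 6 h pair. Each pair is 1 array a side, and the difference between the times was not tested. Hop3, which links Hsp70 to Hsp90, differed by -3.11 at 12 h and 3.32 at 6 h. Fes1A, an exchange factor of Hsp70, differed by -1.54 at 12 h and 3.23 at 6 h. For both co-chaperones the Silwet level was higher at 12 h than at 6 h (7.91 and 4.78 for Hop3, 10.02 and 7.92 for Fes1A). The glycosyltransferase gene UGT73B1 differed by -2.19 at 12 h and 1.13 at 6 h. AT1G64380 differed by -1.39 at 12 h and 1.37 at 6 h, and AT2G20670 by -1.24 and 2.22. In the other direction, AT5G50915 differed by 1.25 at 12 h and -1.07 at 6 h, and AT3G26490 by 1.03 and -1.11.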

How the results depend on the processing

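No paired analysis was possible because every condition had 1 array. The counts of 808 higher and 812 lower probe sets stayed within 1.5 times under every alternative tried, with a single exception. The use of all probe sets that are no maker control, named or not, gave 1692 and 1508. More probe sets entered there, but the counts rose by more than the number of probe sets did. The share of higher ones among those called lay between 49.1% and 53.6% in all settings, and loess moved differences upward, by at most 0.16. The number of families with a median past 0.5 either way was 9, and 21 when only brighter probe sets were counted. In that setting fewer probe sets entered, chosen by a level that the difference itself raises. There 12 family medians moved and 5 changed sign. Those 5 were the subtilases (1.15), GH3 amido synthetases (2.5), UDP-glycosyltransferases (0.14), glutathione S-transferases (-0.12) and heat shock genes (0.036). This limit of 0.5 was chosen after the data were seen. Centring turned the sign only of values near 0: on the median, the medians of the UDP-glycosyltransferases (0.030) and the cold- and dehydration-induced genes (0.019), TRY (0.031) and NDB4 (0.021), and by loess these 4, the heat shock median (0.0052) and RCA (0.058). Of 161 named probe sets past 2-fold, 3 came within it by the median and 5 by loess. With the untreated array as control, which also differs in spray and hour of day, the calmodulin-like median became -0.34, and the medians of the SA-induced genes (0.29), the ATG8 group (1.5) and the U-box ligases (-0.19) also moved. In all 10 family medians changed sign there, among them the WRKY factors (-0.064) and starch genes (0.23). Of the 161 named probe sets past 2-fold, 22 came within it, among them WRKY6 (0.26), BZIP60 (0.034) and AT2G43550 (-0.26). Of all 219 named probe sets 111 stayed and 91 moved. The other 17, all past 2-fold as reported, changed sign and are not counted in the 91. Of these, the following turned to the lower side: HYH (-2.91), WRKY53 (-1.80), CML38 (-0.75), CYTC-2 (-0.50), TET8 (-0.30), PUB23 (-0.19) and AT3G51750 (-0.060). These turned to the higher side: COR27 (4.63), LCR69 (1.56), PWD (1.27), Fes1A (0.94), Hop3 (0.73), DPE1 (0.27), PDF1.4 (0.045), AT4G17470 (0.033), UBC22 (0.033) and PYK10 (0.016). Smaller differences also changed sign there: WES1 (-0.42), IQD23 (-1.12), NDC1 (-0.75), NDB1 (-0.027), LHCB4.3 (-0.18), AT3G28270 (-2.04), SWEET11 (0.35) and UBC20 (0.019). With the mean of both Silwet arrays 42 named probe sets moved, besides 1 past 2-fold that changed sign, AT2G20670. Of the 161, 15 came within 2-fold, among them LTI30 (0.91), CRT1b (0.90), Fes1A (-0.49), PUB25 (-0.72) and RALFL22 (-0.45). The sign changed for AT2G20670 (0.063), WRKY22 (0.080), IQD23 (-0.037), NDC1 (-0.20), AT3G28270 (-0.45) and the beta-glucosidase median (-0.0035). The cause of these turns was not tested. The moves were judged against the SD of the difference between the Silwet arrays, 0.527, which mixes time with noise. No setting can stand in for a replicate, and dim probe sets, near the background of an array, limit the sizes given.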
